A study of Homo sapiens with 6 samples.

Results

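The miR-28 and miR-151 family was followed across small RNA libraries of A549, an established human lung adenocarcinoma cell line. The family was chosen by name: hsa-miR-28-5p, hsa-miR-28-3p, hsa-miR-151a-3p, hsa-miR-151a-5p, hsa-miR-151b and hsa-miR-708-5p, 6 of the 2588 mature miRNAs measured. The choice was made with earlier results of these libraries known, among them that miR-151a-3p is abundant and that it was low in 1 library of parental cells, so these values are a description. Libraries of parental A549 cells (Ctrl, n = 3) were compared with libraries of A549 cells in which Cas9 and a pair of guide RNAs had deleted the *MIR21* locus (*MIR21*-KO, n = 3). All cells grew in the same medium and were harvested 48 h after seeding. The knockouts of the study were raised as clones from single sorted cells while Ctrl was the parental line, and the labels do not say whether libraries of a group came from separate cultures, so the spread between them may be technical.

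MicroRNAs are cut from a hairpin by Drosha and Dicer, and either arm of the hairpin (5p or 3p) can be loaded into Argonaute. The bases from position 2 to 8 of the loaded strand, the seed, pair with target mRNAs. miR-28 and miR-151 arose from LINE-2 repeats and miR-708 is a related hairpin. Several host genes of these hairpins act in adhesion: LPP encodes a focal adhesion protein, PTK2 the focal adhesion kinase FAK and TENM4 a transmembrane teneurin.

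The RefSeq table of GRCh38.p14 held the mature sequence of 2 of the 6 members. They are shown 5′ to 3′ with the seed in capitals, together with the other arm of miR-708 and with miR-3139, the only other miRNA among 2370 in that table with the seed of miR-708-5p, to show which letters the names share.
miR-28-3p: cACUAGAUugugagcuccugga
miR-708-3p: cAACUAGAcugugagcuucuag
miR-708-5p: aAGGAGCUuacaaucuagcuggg
miR-3139: uAGGAGCUcaacagaugccuguu
miR-28-3p lies at chr3:188688834-188688855 on the plus strand, miR-708-3p at chr11:79402032-79402053 and miR-708-5p at chr11:79402077-79402099 on the minus strand, and miR-3139 at chr4:143343469-143343491 on the plus strand. The seeds of the 3p arms of miR-28 and miR-708 share letters but are shifted by a base, and the longest run common to both arms, UGUGAGCU, starts at base 9 of miR-28-3p and at base 10 of miR-708-3p. The seed letters AGGAGCU of miR-708-5p occur anywhere in the mature sequence of 8 miRNAs of the table (0.338%, searched on the given strand). The hairpin of MIR151B holds them once, from base 63 of its 96 bases. Mature miR-28-5p, miR-151a-3p, miR-151a-5p and miR-151b had no sequence in that table. They could not be searched, so the counts above leave them out and do not show that they lack these letters.

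All 4 hairpins lie in introns of protein-coding genes by GENCODE 29. MIR28 (chromosome 3, 188688781 to 188688866, plus strand) lies in LPP and MIR708 (chromosome 11, 79402022 to 79402109, minus strand) in TENM4, each on the strand of its host. MIR151A lies in PTK2, also on the strand of its host. MIR151B (chromosome 14, 100109419 to 100109514, minus strand) lies within an intron of EVL, which is read from the opposite strand.

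The libraries held between 5577287 and 9768152 miRNA reads. The deposited values are TMM-scaled counts per 1000000 and are called levels here. Deletion of the target was seen in every library of its group, since miR-21-5p was listed at 957134 or more in each Ctrl library and at 81.3 to 184 in *MIR21*-KO. The first principal component of 326 miRNAs that were neither members nor miR-21 held 76.1% of the variance and did not follow the conditions. The labels name 1 provider for all libraries and give no batch. The methods of the study name a kit or Novogene for small RNA libraries, and TU Dresden or Novogene for sequencing. They do not assign these to single libraries, and the part of preparation in this component was not tested. Ctrl replicates 1 and 2 and *MIR21*-KO replicate 3 had scores of 16.2, 13.3 and 11.7, and Ctrl replicate 3 and *MIR21*-KO replicates 1 and 2 had -14.6, -13.2 and -13.4. All 5 miRNAs listed as epithelial markers had a mean level of at least 1, with a summed level of 1374 to 2171 in Ctrl, against 879 to 1269 in *MIR21*-KO. Of the mesenchymal, muscle and neural markers, 3 of 4, 1 of 3 and 1 of 2 reached that mean, with summed levels of 248 to 657, 5.93 to 28.1 and 388 to 746 in Ctrl against 428 to 1231, 7.64 to 71.1 and 155 to 177 in *MIR21*-KO, and no marker of any list was at 0 in all libraries. The epithelial sum was mostly miR-200b-3p, at 1953, 1193 and 1343 in Ctrl, against 530, 577 and 1038 in *MIR21*-KO (log2 fold change -1.10). The log2 fold change was also negative for miR-200a-3p, miR-141-3p and miR-429 (-0.17, -0.34 and -0.48), but positive for miR-200c-3p (0.60). The neural sum was nearly all miR-9-5p, as miR-124-3p reached at most 0.811. Of the 607 miRNAs tested, 6.59% were without overlap and lower in *MIR21*-KO. Differences between these sums were not tested. In bulk RNA fewer cells that make a miRNA and less of it per cell cannot be told apart.

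The members covered a range from one of the most abundant miRNAs of these cells to the limit of counting, and miR-151a-3p moved by the widest range of the 4 members with a mean level of at least 10 (plot of member levels). miR-151a-3p had the highest level of the family in every library. miR-28-3p came next, followed by miR-28-5p, miR-151a-5p, miR-151b and miR-708-5p. Between neighbours in this order the ranges over the 6 libraries did not overlap, from 2919 and above for miR-151a-3p against at most 1799 for miR-28-3p down to at least 9.08 for miR-151a-5p against at most 7.28 for miR-151b. The exception was the last step, where miR-151b and miR-708-5p were both listed at 0 in Ctrl replicate 1. Reads cover whole mature strands of similar length, so levels were not divided by length, but ligation and amplification can favour some sequences, and their part in this order was not tested.

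**Figure D1:**
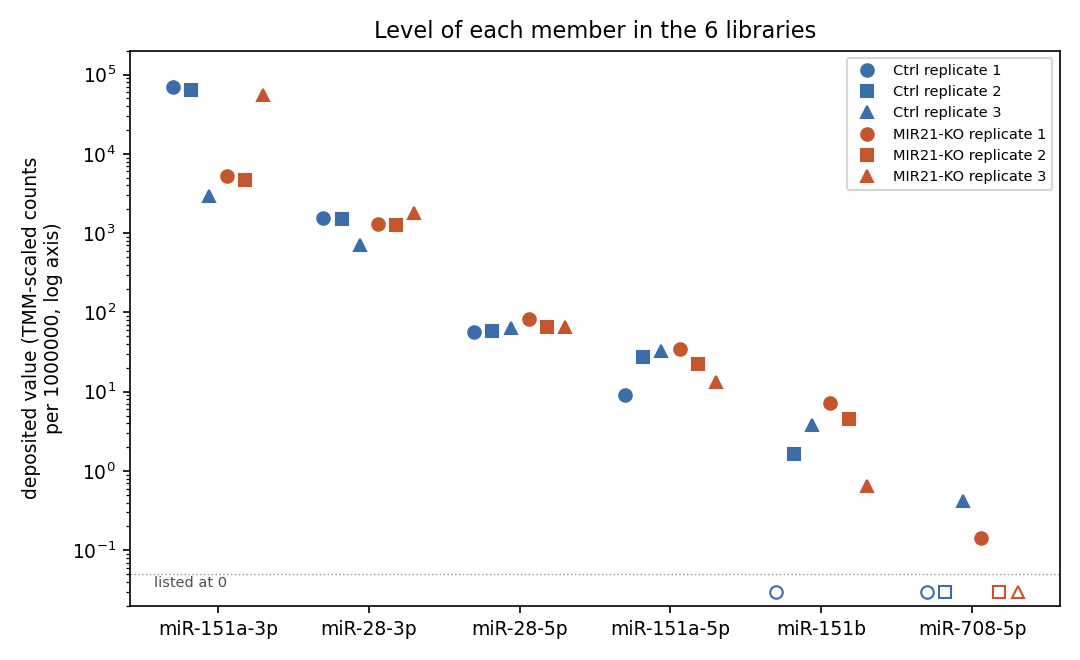
Level of each member in each library as the deposited value (TMM-scaled counts per 1000000, log axis). Colours mark the condition, shapes the replicate number and open symbols under the dotted line a level of 0. miR-151a-3p lies between 55952 and 70696 in 3 libraries and between 2919 and 5261 in the other 3, while miR-28-5p stays between 56.9 and 82.9.

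miR-151a-3p, encoded in the intron of PTK2, was listed at 70696, 64729 and 2919 in Ctrl replicates 1, 2 and 3. In *MIR21*-KO replicates 1, 2 and 3 it was listed at 5261, 4739 and 55952. Ctrl replicates 1 and 2 and *MIR21*-KO replicate 3 were thus high and the other libraries low, which is the arrangement of the first principal component and not that of the conditions. The highest level was 24.2 times the lowest. By level it took places 4, 3 and 4 among all miRNAs in the high libraries and places 33, 20 and 21 in Ctrl replicate 3 and *MIR21*-KO replicates 1 and 2. Counting error was small beside this, as the 20685 reads of the lowest library have an exact 95% interval from 20404 to 20969, which like all such intervals here covers counting error only.

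Measured by the range of log2(level + 1) over the 6 libraries, miR-151a-3p (4.60) stood in place 5 of the 332 miRNAs with a mean level of at least 10, whose median range was 2.01. The mean of the Ctrl libraries was 46114 ± 37527 and that of the *MIR21*-KO libraries 21984 ± 29419 (SD, n = 3 each). The log2 fold change of -1.09 (standard error 1.41, 95% interval from -4.38 to 2.21) did not pass the test (adjusted p = 0.789, limma with Benjamini-Hochberg adjustment). It was -2.60 if Ctrl replicate 3 was left out (adjusted p = 0.147, limma) and -2.25 if *MIR21*-KO replicate 3 was. It shrank to -0.30 and -0.36 if Ctrl replicate 1 or 2 was left out and to -0.54 and -0.47 if *MIR21*-KO replicate 1 or 2 was. Its sign was positive (0.30) with each library scaled to its total. Among the libraries with high levels, *MIR21*-KO replicate 3 (55952) lay below both Ctrl libraries (70696 and 64729). Among those with low levels, both *MIR21*-KO libraries (5261 and 4739) lay above Ctrl replicate 3 (2919), so no common direction was seen, and this was not tested.

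Other measures moved with the level of miR-151a-3p. The 3 libraries with high levels had the fewest miRNA reads, 6871585, 6180032 and 5577287 against 9768152, 8671618 and 7244400. The liver marker miR-122-5p was listed at 96.7, 140.8 and 51.9 in them and at 7.90, 16.2 and 8.58 in the others, and the red cell marker miR-451a at 16.3, 41.6 and 8.97 against 1.69, 4.61 and 2.45. Of the 6 blood cell markers 2 had a mean level of at least 1, with a summed level of 137 to 218 in Ctrl, against 78.8 to 92.8 in *MIR21*-KO, and none was at 0 in all libraries. The other of these 2, miR-486-5p, did not follow miR-151a-3p and was listed at 164, 175 and 135 in Ctrl replicates 1 to 3 and at 80.1, 75.7 and 83.6 in *MIR21*-KO replicates 1 to 3. miR-122-5p and miR-451a were singled out after their values were seen. The first principal component of 326 miRNAs, with 76.1% of the variance, had the same split, so it was not particular to these markers. The part of depth and of these markers in the level of miR-151a-3p was not tested.

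miR-151a-5p, the opposite arm of the same hairpin, did not follow miR-151a-3p. Its levels were 9.08, 27.6 and 32.3 in Ctrl replicates 1 to 3 and 34.8, 22.6 and 13.1 in *MIR21*-KO replicates 1 to 3, from 34 to 483 reads. It was lowest in Ctrl replicate 1 and *MIR21*-KO replicate 3, where miR-151a-3p was high. The groups overlapped, with means of 23.0 ± 12.3 and 23.5 ± 10.9 (SD, n = 3 each) and a log2 fold change of 0.10 (standard error 0.62, adjusted p = 0.945, limma). This sign turned under several settings, to -0.43 if Ctrl replicate 1 was left out and to -0.22 if *MIR21*-KO replicate 1 was, and to -0.14 with the total less miR-21 as the scale, -0.0485 with median-of-ratios factors and -0.19 with centred medians.

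The ratio of the arms does not depend on how a library is scaled. miR-151a-3p had 7786 reads for each read of miR-151a-5p in Ctrl replicate 1 (95% exact binomial interval from 5571 to 11242). The ratio was 2348 in Ctrl replicate 2 and 4261 in *MIR21*-KO replicate 3. It was 90.3 in Ctrl replicate 3 (from 79.3 to 103), 151.2 in *MIR21*-KO replicate 1 and 209.9 in *MIR21*-KO replicate 2. By the reads listed, the 3p arm thus prevailed in every library, and its excess differed between libraries of 1 condition by more than counting error. miR-151a-5p is close in sequence to miR-151b, and how reads that match both were assigned is not given in the sources used here. Its count may leave out or take in shared reads, so the size of the ratio is uncertain, and this was not tested. On the log2 scale the mean ratio was 10.21 ± 3.33 for Ctrl libraries against 9.004 ± 2.65 for *MIR21*-KO libraries (SD, n = 3 each). The difference of -1.20 was within this spread (two-sided exact permutation test, p = 0.8, and 0.9 adjusted over the 3 measures tested this way, where 3 libraries against 3 cannot go below 0.1). Without Ctrl replicate 1 it was 0.16.

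**Figure D2:**
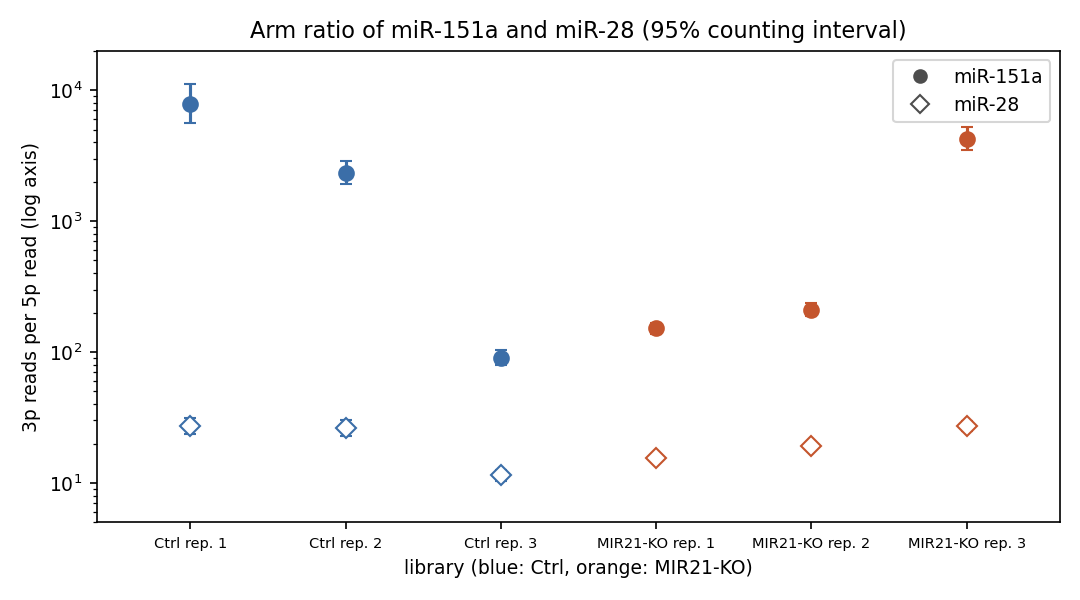
Reads of the 3p arm for each read of the 5p arm (log axis) of miR-151a (filled circles) and miR-28 (open diamonds) in each library, with exact 95% intervals for counting error. The ratio of miR-151a runs from 90.3 to 7786 and that of miR-28 from 11.4 to 27.3, and both are lowest in Ctrl replicate 3.

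miR-28 also gave mostly its 3p arm, at a far steadier ratio. Ctrl replicates 1 to 3 held 27.1, 26.2 and 11.4 reads of miR-28-3p for each read of miR-28-5p, and *MIR21*-KO replicates 1 to 3 held 15.6, 19.3 and 27.3. The 3 libraries with the highest ratio of miR-151a also had the highest ratio of miR-28. The mean log2 ratio was 4.33 ± 0.71 in Ctrl, against 4.33 ± 0.41 in *MIR21*-KO (SD, n = 3 each; two-sided exact permutation test, p = 0.9, and 0.9 adjusted). The difference, 0.0059, became -0.40 if Ctrl replicate 3 was left out and -0.21 if *MIR21*-KO replicate 3 was.

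Set beside all 90 miRNAs with at least 10 reads of each arm in every library, miR-151a had the largest mean ratio of 3p to 5p. The uncertainty of its 5p reads given above holds for this place too. Its ratio ranged over 6.43 on the log2 scale across the libraries, place 2 of 90. miR-28 ranged over 1.26, place 73 of 90, and stood in place 19 by its mean ratio. The median pair ranged over 2.62 with a mean log2 ratio of 0.51. Both family hairpins therefore lay on the 3p side of the median, and by their spread over libraries they stood on opposite sides of the median (plot of arm ratios of all pairs).

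**Figure D3:**
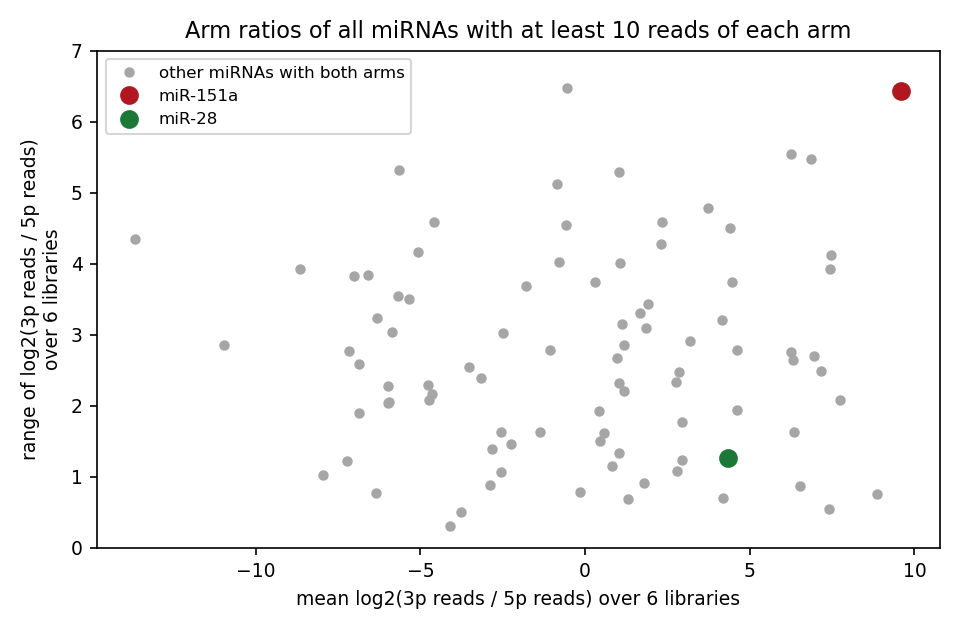
Each point is 1 miRNA with at least 10 reads of both arms in all 6 libraries. The horizontal axis gives the mean over libraries of log2(3p reads / 5p reads) and the vertical axis the range of that value over libraries; miR-151a lies far to the right with a range of 6.43 and miR-28 at a range of 1.26.

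miR-28-3p was listed at 1541, 1528 and 719 in Ctrl replicates 1 to 3 and at 1290, 1256 and 1799 in *MIR21*-KO replicates 1 to 3. Ctrl replicate 3 was the lowest and *MIR21*-KO replicate 3 the highest, and the groups overlapped. Among the 3 libraries with a positive score on the first principal component, *MIR21*-KO (1799) lay above both Ctrl libraries (1541 and 1528), and among the other 3 both *MIR21*-KO libraries (1290 and 1256) lay above Ctrl (719). This order within the sets was not tested, and the test has the condition as its only term. Its log2 fold change was 0.26 (standard error 0.46, 95% interval from -0.81 to 1.33, adjusted p = 0.827, limma). The sign turned without Ctrl replicate 3 (-0.10) and with median centring (-0.0344).

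miR-28-5p, grouped by seed with miR-708-5p in miRNA catalogues, was among the steadiest miRNAs of these cells. It was listed at 56.9, 58.4 and 63.1 in Ctrl, against 82.9, 65.2 and 65.9 in *MIR21*-KO (replicates 1 to 3), from 213 to 1151 reads. Its range on the log2 scale, 0.54, was in place 328 of 332 when ordered from the widest. Every *MIR21*-KO library lay above every Ctrl library at the deposited scaling, as for 9.56% of the 607 miRNAs tested. The log2 fold change was 0.25 (standard error 0.41, 95% interval from -0.69 to 1.19, adjusted p = 0.805, limma), and it was -0.0438 with median centring, 0.00040 with the total less miR-21 as the scale, 0.09 with median-of-ratios factors, 0.06 with edgeR and 0.01 with DESeq2. It was 0.14 if *MIR21*-KO replicate 1 was left out. As a share of miRNA reads other than miR-21 the groups overlapped, at 0.00899%, 0.0111% and 0.0151% in Ctrl, against 0.0133%, 0.0125% and 0.00909% in *MIR21*-KO.

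miR-151b, from the hairpin in EVL, is close in sequence to miR-151a-5p. How reads that match both were assigned is not given in the sources used here, so the values of both are uncertain. miR-151b had 0, 6 and 27 reads in Ctrl replicates 1 to 3 and 101, 62 and 5 in *MIR21*-KO replicates 1 to 3. The corresponding levels were 0, 1.62 and 3.81 in Ctrl, against 7.28, 4.47 and 0.65 in *MIR21*-KO. The 0 allows a level of up to 0.985, the upper end of its exact 95% interval. The 3 libraries low in miR-151a-3p were the 3 highest in miR-151b. The groups overlapped, with a log2 fold change of 0.86 (standard error 0.76, adjusted p = 0.719, limma), which is understated for so low a level by the pseudocount of 1. It was 1.74 with a pseudocount of 0.1 and 0.24 with 10, and it moved to 0.25 or 1.38 if Ctrl replicate 1 or 3 was left out and to 0.37 or 1.53 if *MIR21*-KO replicate 1 or 3 was.

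miR-151b did not keep a fixed proportion to miR-151a-5p. Of the reads of both, miR-151b made up 0%, 5.56% and 10.5% in Ctrl replicates 1 to 3 and 17.3%, 16.5% and 4.72% in *MIR21*-KO replicates 1 to 3. The exact 95% intervals were 12.9% to 20.7% for *MIR21*-KO replicate 2 and 1.55% to 10.7% for *MIR21*-KO replicate 3, which do not overlap. In Ctrl replicate 1 the 34 reads allow up to 10.3%.

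miR-708-5p, from TENM4, was at the limit of counting. It had 3 reads in Ctrl replicate 3, 2 in *MIR21*-KO replicate 1 and 0 in the other 4 libraries. By the upper end of the exact 95% interval, these zeros allow levels of up to 0.985 and 0.997 in Ctrl replicates 1 and 2. In *MIR21*-KO replicates 2 and 3 they allow up to 0.266 and 0.480. It did not enter the test, and no difference was detectable at this depth. Its other arm, miR-708-3p, had 3, 5 and 1 reads in Ctrl, against 3, 0 and 0 in *MIR21*-KO (replicates 1 to 3). miR-3139, with the seed shown above, had 5 reads in Ctrl replicate 3, 1 read each in *MIR21*-KO replicates 1 and 2 and 0 elsewhere.

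Of the 6 members 5 passed the filter of a level of at least 1 in at least 3 libraries, and none was called at an adjusted p under 0.05 (limma). Of all 607 miRNAs tested, 0% were called higher and 0.824% were called lower. Those called lower include miR-21-5p and miR-21-3p, the strands of the deleted locus. None of the 5 members (0) passed at an unadjusted p under 0.05, where 6.75% of the miRNAs tested passed as higher and 4.45% as lower. edgeR and DESeq2 on the reads also called 0 of the 5. For 6.59% of the miRNAs tested, and 0 of the 5 members, the *MIR21*-KO libraries all lay below the Ctrl libraries. The median log2 fold change of the 5 members was 0.25 and that of all miRNAs 0.24. Scaling each library to its total, which raises every other miRNA as miR-21 is lost, shifted the median of all miRNAs to 1.34 and called miR-28-3p (1.65, adjusted p = 0.0283, limma) and miR-28-5p (1.61, adjusted p = 0.0328, limma) higher, as it did 32.3% of the 607 miRNAs.

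**Figure D4:**
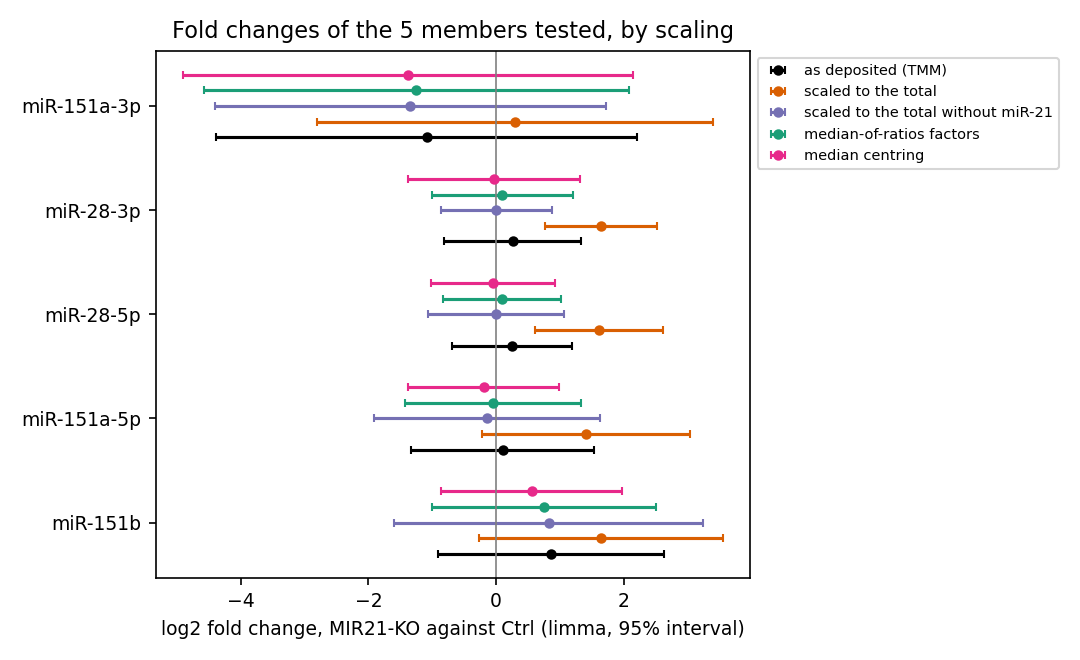
Log2 fold change of *MIR21*-KO against Ctrl with its 95% interval (limma) for the 5 members tested, with the values as deposited and with 4 other scalings. All intervals hold 0 except those of miR-28-3p and miR-28-5p when libraries are scaled to their total, and the interval of miR-151a-3p is the widest of the 5 at each scaling.

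Taken as a share of miRNA reads other than miR-21, the 6 members made up 11.4%, 12.6% and 0.893% in Ctrl replicates 1 to 3 and 1.07%, 1.17% and 7.98% in *MIR21*-KO replicates 1 to 3. The means were 8.31% ± 6.45 and 3.40% ± 3.96 (SD, n = 3 each), and the difference was within that spread (two-sided exact permutation test, p = 0.4, and 0.9 adjusted). The difference of -4.91 percentage points was -8.62 if Ctrl replicate 3 was left out, -7.20 if *MIR21*-KO replicate 3 was and -2.76 if Ctrl replicate 2 was. As a share of all miRNA reads, miR-21 included, it had the opposite sign (0.68). miR-151a-3p accounted for 77.9% to 97.8% of the family. The 5 other members together were steady by comparison, at 0.254%, 0.307% and 0.196% in Ctrl, against 0.227%, 0.258% and 0.259% in *MIR21*-KO. Most of this was miR-28-3p, at 0.244%, 0.291% and 0.172% in Ctrl, against 0.207%, 0.240% and 0.248% in *MIR21*-KO. The steadiness of the 5 together is thus mainly that of miR-28-3p. The sum of the family thus followed 1 strand (plot of the family share).

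**Figure D5:**
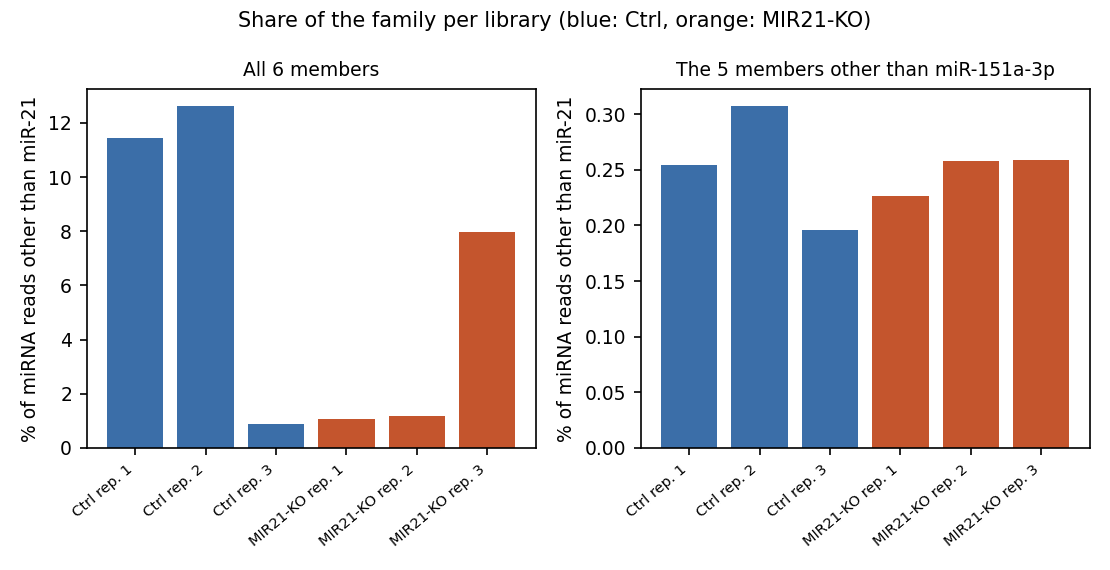
Percent of miRNA reads other than miR-21 that fall to all 6 members (left) and to the 5 members other than miR-151a-3p (right), 1 bar per library, each axis starting at 0. The left bars run from 0.893% to 12.6% and the right bars from 0.196% to 0.307%.

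Among 163 miRNAs with a mean level of at least 100 that are no members, the pattern of miR-151a-3p was closest to those of miR-3158-3p (Pearson r = 0.997 on log2(level + 1) over the 6 libraries), miR-30a-3p (0.991) and miR-2682-5p (0.988). miR-3158-3p was listed at 629, 700 and 75.4 in Ctrl, against 125, 106 and 533 in *MIR21*-KO. miR-30a-3p, also a 3p strand, was listed at 4251, 4019 and 1373 in Ctrl, against 1800, 1732 and 4666 in *MIR21*-KO. The same 3 libraries were high in both as in miR-151a-3p. For miR-151a-5p the closest were miR-193b-3p (0.951), miR-29b-3p (0.945) and miR-331-3p (0.910). For miR-28-3p they were miR-370-3p (0.970), miR-3615 (0.969) and miR-330-3p (0.953), and for miR-28-5p miR-345-5p (0.915), let-7c-5p (0.882) and miR-98-5p (0.867). The arms of a hairpin had no miRNA in common among their closest 3. With only 3 of 163 taken for each, this does not set the arms apart. These values rest on 6 libraries that share depth and scaling, and they describe those libraries alone.

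A list of other miRNAs held to stem from LINE-2 repeats, drawn up from background knowledge and not checked against a source here, held miR-95, miR-325, miR-374a, miR-374b, miR-421 and miR-545, with 10 strands in all. Of these, 6 entered the test and 0 were called (limma), with a median log2 fold change of 0.37 against 0.24 for all miRNAs. miR-95-3p was the 1 strand at an unadjusted p under 0.05, at 4.81, 1.62 and 1.69 in Ctrl, against 5.83, 5.77 and 7.67 in *MIR21*-KO (log2 fold change 1.10, adjusted p = 0.427, limma). Its *MIR21*-KO libraries all lay above its Ctrl libraries, as for 9.56% of the 607 miRNAs tested. At an unadjusted p under 0.05, 6.75% of the miRNAs tested passed as higher. The level of miR-95-3p in Ctrl replicate 1 rested on 18 reads, with an exact 95% interval from 2.85 to 7.60. miR-374a-5p was listed at 83.9, 75.4 and 602 in Ctrl, against 320, 357 and 125 in *MIR21*-KO, lowest in the 3 libraries where miR-151a-3p was highest. miR-95-5p and miR-325 had no read in any library.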

How the data were processed

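Small RNA of 3 Ctrl and 3 *MIR21*-KO libraries of A549 cells was measured. The submitters' processing notes name cutadapt 1.14, Bowtie2 2.3.2, SAMtools 1.5, featureCounts 1.5.3, edgeR 3.18.1 and hg38. The authors deposited 1 signal per mature miRNA and library, the reads divided by 1 factor per library (TMM-scaled counts per 1000000). Columns of the authors' own fold changes, p-values and FDRs were not used. Dividing by what 1 read is worth gave whole numbers (tolerance 0.001) for 100% of values, and these reads were recovered. The 2813 rows were summed by name to 2588 miRNAs; each member had 1 row. Values were tested as log2(value + 1) with limma 3.58.1 (lmFit, eBayes with trend, R 4.3.3; condition as the only term) over the 607 miRNAs that reached a value of 1 in 3 or more libraries, with Benjamini-Hochberg adjustment, two-sided. Arm ratios and shares were compared by exact permutation tests. edgeR 4.0.16 and DESeq2 1.42.0 were run on the recovered reads as alternatives, beside other pseudocounts, filters, scalings, a replicate block and each library left out. The fits were tested on simulated data with independent libraries. These held no split of the libraries across the conditions like that of the first principal component, so they do not show how the fits perform here. Libraries of a group differed by far more than sampling noise (chi-square per degree of freedom from 159 to 3156). miRNAs named are the members, their seed and arm relatives, a LINE-2 list, cell type markers, miR-21-5p, miR-21-3p, and for 4 members the 3 miRNAs of most similar pattern. The markers named singly, such as miR-122-5p and miR-451a, were singled out after their values were seen. Members and lists were chosen with earlier results of these data known. Permutation tests were run by listing every split of the libraries with numpy 2.4.6. Counting intervals came from scipy 1.17.1 and plots from matplotlib 3.10.9 (Python 3.11.15).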

Additional observations from a re-analysis of the deposited data

How the results depend on the processing

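Under 18 alternatives, 74 of 89 recomputed fold changes of members kept their direction and their side of the threshold and 13 changed sign, all of them without a call. The cause was not tested except where the construction shows it. Scaling to the total called 2 members higher, with 196 of all miRNAs (0 as deposited), as the loss of miR-21 raises every other share, and put miR-151a-3p at 0.30. DESeq2 called 4 higher. Of all miRNAs 5 were called lower as deposited, but 3 if the pseudocount was 10, 9 with median centring, 8 with edgeR, 19 with DESeq2, 2 with the replicate block and 2 to 5 with 1 library left out. The replicate block called no member. Same-numbered libraries of the groups deviated oppositely (correlations of -0.79, -0.60 and -0.88). The labels link them by no more than the number, so a call lost under the block is not read as a weaker effect.

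miR-151a-5p changed sign with the total without miR-21 (-0.14), median-of-ratios factors (-0.0485), median centring (-0.19), edgeR (-0.18) and DESeq2 (-0.24), and ran from -0.43 to 0.45 with 1 library left out. miR-28-3p changed sign with median centring (-0.0344), edgeR (-0.0059) and DESeq2 (-0.0410), and ran from -0.10 to 0.45. miR-28-5p was -0.0438 with median centring. The median fold change over all miRNAs, 0.24 as deposited, moved to 1.34 with the total, 0.03 with the total without miR-21, -0.06 with median centring and 0.10 with median-of-ratios factors. With 1 library left out, the difference in log2 arm ratio ran from -3.06 to 0.16 for miR-151a and from -0.40 to 0.22 for miR-28. The family share differed by -4.91 percentage points, by 0.68 of all miRNA reads and by -0.0043 without miR-151a-3p. Depth limits miR-708-5p and miR-151b, whose reads are few.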
